A study of Mus musculus with 6 samples.

Results

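Transcript levels of 10 Krüppel-like factor (KLF) genes, Klf2, Klf3, Klf4, Klf5, Klf6, Klf7, Klf9, Klf10, Klf13 and Klf16, were compared between mouse embryonic stem cells (ESCs) and epiblast-like cells (EpiLCs). These 10 were chosen by name from the 24736 genes of the expression table, and all 10 had enough counts to be tested. RNA was sequenced from 3 biological replicates of each group, all of the wild-type line HM1 TetON, an XY line that expresses the rtTA transactivator and from which the other lines of the study were derived. ESCs (0 h) were grown on mitotically inactivated fibroblast feeders with 10% serum and LIF, a cytokine that sustains self-renewal, at 1000 U/ml. EpiLCs (48 h) were grown on gelatin without serum, in N2/B27 medium with LGK974, which blocks WNT secretion, at 5 µM and bFGF at 10 ng/ml. Both groups thus represent 1 genetic background, and medium, feeders and time changed together between them and cannot be told apart.

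KLF proteins bind GC-rich and CACCC elements in DNA through a conserved array of C2H2 zinc fingers near the carboxyl terminus, whereas their amino-terminal parts differ and recruit different cofactors. Klf2, Klf4 and Klf5 are activators with overlapping targets that help to hold mouse ESCs in the naive pluripotent state. Klf4 acts downstream of LIF and STAT3, and Klf4 is one of the classical reprogramming factors. Klf6 and Klf7 are also classed as activators, Klf3 represses with the corepressor CtBP, and Klf9, Klf10, Klf13 and Klf16 can recruit the SIN3 corepressor complex.

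The libraries held between 16967741 and 28521848 expected counts in ESCs and between 30683164 and 35096210 in EpiLCs. ESC marker genes fixed for a check of identity (Pou5f1, Nanog, Esrrb, Zfp42 and Tfcp2l1) were all expressed in ESCs, and 4 of the 5 were lower in EpiLCs, the exception being Pou5f1. The 4 EpiLC markers Fgf5, Pou3f1, Otx2 and Dnmt3b were all higher in EpiLCs. Levels are given as TPM (transcript abundance scaled for transcript length and library size), so that levels of different genes can be compared. Fold changes are EpiLC minus ESC on the log2 scale from edgeR's quasi-likelihood test on counts, with p-values adjusted by the Benjamini-Hochberg method over all 14468 tested genes and a threshold of 0.05. Cell number and RNA content per cell cannot be told apart in bulk libraries.

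Of the 10 KLF genes, 7 were lower in EpiLCs (Klf2, Klf3, Klf4, Klf5, Klf6, Klf9 and Klf10), 1 was higher (Klf7), and Klf13 and Klf16 did not pass the test. Without ESC replicate 3, Klf13 passed too and 2 were higher, while 7 were lower whichever library was left out. Among all tested genes, 22.8% were lower and 22.6% were higher. With a log2 fold change beyond 1 required as well, 6 KLF genes were lower and 1 was higher, against 11.5% and 8.78% of all tested genes. Klf3, 1 of the 6, fell short of this cut without ESC replicate 3 (-0.97) and without EpiLC replicate 3 (-0.95). It also did with limma on log2(TPM + 1) (-0.98). The median log2 fold change of the 10 genes was -1.16, beside -0.0017 over all tested genes. Since the 10 genes were picked with results of these data known, the counts describe the set and were not tested as a set.

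**Figure D1:**
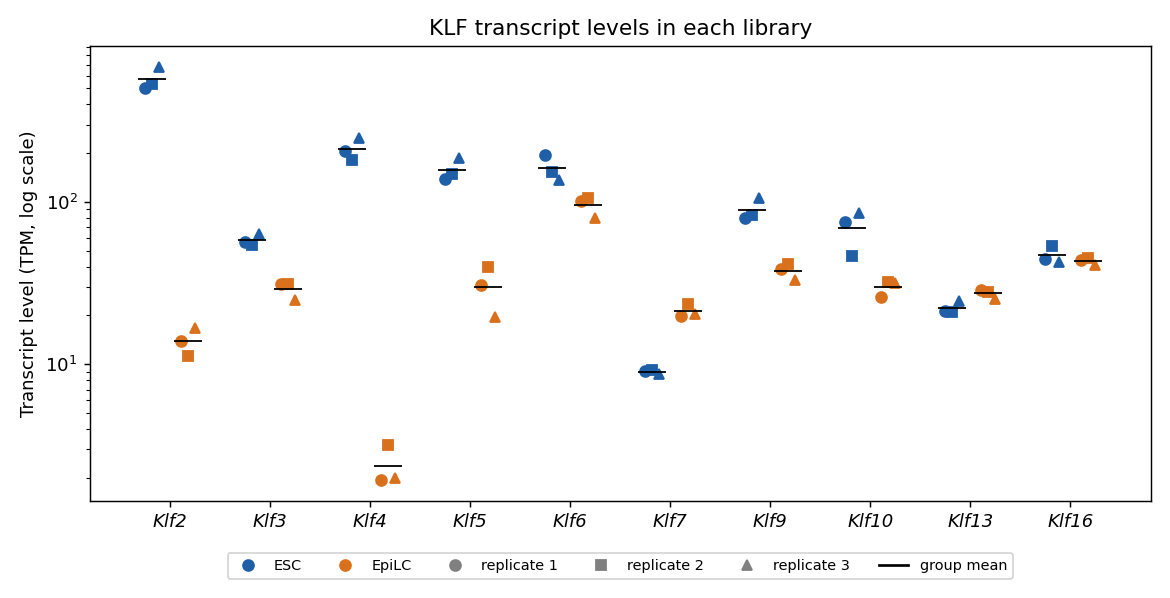
Transcript level (TPM, log axis) of each of the 10 KLF genes in the 3 ESC libraries (blue) and the 3 EpiLC libraries (orange), with marker shapes for replicates and black lines for group means. Klf2 and Klf4 show the widest gaps between the groups, Klf7 lies above its ESC values in EpiLCs, and the Klf16 points of both groups overlap.

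The promoters of Klf2 and Klf4, the 2 genes that fell most, and of Klf7, the gene that rose, are shown because GC boxes and CACCC elements are the sequences that KLF and SP proteins bind. Sequences are from RefSeq (GRCm38.p6, the assembly of mm10), each with the 250 bases before an annotated start site, on the gene's strand, with GC boxes (GGGCGG on either strand, overlaps included) in capitals. The Klf2 sequence is chr8:72318812-72319061 on the plus strand, that of Klf4 is chr4:55532476-55532725 on the minus strand, and that of Klf7 is chr1:64121390-64121639 on the minus strand. The Klf2 and Klf4 stretches adjoin the outer start of the gene, whereas that of Klf7 precedes an internal annotated start and lies within the span of the gene.
Klf2: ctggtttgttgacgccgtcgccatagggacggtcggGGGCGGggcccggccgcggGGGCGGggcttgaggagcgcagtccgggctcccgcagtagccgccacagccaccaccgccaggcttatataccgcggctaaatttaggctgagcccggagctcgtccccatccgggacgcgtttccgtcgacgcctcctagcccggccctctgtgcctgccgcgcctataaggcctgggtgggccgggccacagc
Klf4: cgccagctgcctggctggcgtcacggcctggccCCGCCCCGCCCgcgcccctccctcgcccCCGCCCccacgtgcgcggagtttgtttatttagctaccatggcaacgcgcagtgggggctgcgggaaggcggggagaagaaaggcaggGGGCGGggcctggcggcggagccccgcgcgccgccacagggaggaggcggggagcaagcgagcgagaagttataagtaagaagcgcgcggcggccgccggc
Klf7: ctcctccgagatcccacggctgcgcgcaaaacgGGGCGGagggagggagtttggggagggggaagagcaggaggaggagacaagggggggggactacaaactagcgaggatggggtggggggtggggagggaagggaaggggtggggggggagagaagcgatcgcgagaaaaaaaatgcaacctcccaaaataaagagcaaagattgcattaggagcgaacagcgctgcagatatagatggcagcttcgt

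Klf4 had 4 GC boxes in this stretch, 2 of them overlapping, Klf2 had 2 and Klf7 had 1. The letters CACCC, searched on both strands, occurred 3 times before Klf7, 1 time before Klf2 and 0 times before Klf4. RefSeq windows of 300 bases, which add 50 bases after the start, were at hand for 7 of the 10 genes (not Klf5, Klf10 and Klf16). GGGCGG was in 6 of the 7 windows and in 35.7% of all 32851 windows, with Klf9 the exception. CACCC was in 5 of the 7 and in 57.5% of all windows. The letters TTCNNNGAA, a general STAT site, were in 1 of the 7 windows, that of Klf9, and in 8.30% of all windows. The 7 windows were rich in G and C, from 58.3% in Klf7 to 76.7% in Klf3, beside a median of 52.7% over all windows. The falling genes ranged from 0 GC boxes (Klf9) and 1 (Klf6) to 6 (Klf3), the rising Klf7 had 1, and Klf13, which did not pass the test, had 3. A match describes letters only and is not a measured binding site.

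Klf2, a factor also known for its role in endothelial cells, lies on chromosome 8 from 72319062 to 72321654 (mm10). It was the most abundant KLF transcript in ESCs, at 503, 531 and 682 TPM in replicates 1, 2 and 3. In EpiLCs it was at 13.8, 11.2 and 16.7 TPM. All EpiLC libraries were far below all ESC libraries, and replicate 3 was the highest of its group in both. The log2 fold change was -5.41 (standard error 0.21, edgeR adjusted p = 2.5e-05), a 42.6-fold fall. By mean TPM, Klf2 ranked above 98.4% of tested genes in ESCs and above 48.6% in EpiLCs.

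Klf4 (chromosome 4, 55527137 to 55532475) reached 205, 182 and 249 TPM across the ESC libraries. In EpiLCs it reached 1.94, 3.17 and 2.01 TPM, where its counts were 97, 152 and 88. The groups were separated by a wide gap, and Klf4 became the least abundant of the 10 genes in EpiLCs. Its log2 fold change was -6.53 (standard error 0.24, edgeR adjusted p = 1.93e-05), a 92.6-fold fall and the 34th largest change in either direction among all tested genes, with that of Klf2 at rank 69.

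Klf5 (chromosome 14, 99298691 to 99313412), which is required for the early blastocyst lineages, had ESC levels of 139, 148 and 186 TPM. Its EpiLC levels were 30.7, 39.8 and 19.6 TPM. It was lower in every EpiLC library than in any ESC library, but its EpiLC libraries differed by up to 2.03-fold, the widest range of the 10 genes in that group. The log2 fold change was -2.45 (standard error 0.25, edgeR adjusted p = 0.000536), a 5.46-fold fall. Klf5 was thus still in the middle of the family in EpiLCs, at 30.0 ± 10.1 TPM (mean ± SD, n = 3), whereas Klf2 was at 13.9 ± 2.76 TPM and Klf4 at 2.37 ± 0.69 TPM (n = 3 each).

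The fold changes of the 3 naive factors differed in size, and the factors were compared as ratios within each library. The log2 ratio of Klf5 to Klf2 was nearly constant in ESCs, at -1.85, -1.84 and -1.88, and turned positive in EpiLCs, at 1.15, 1.83 and 0.23. The log2 ratio of Klf4 to Klf5 was 0.43 ± 0.13 in ESCs and -3.64 ± 0.35 in EpiLCs (SD, n = 3 each). That of Klf4 to Klf2 was -1.43 ± 0.13 in ESCs and -2.57 ± 0.66 in EpiLCs (SD, n = 3 each). In each of the 3 ratios all EpiLC values lay on one side of all ESC values. Each ratio follows from the others, so they are not separate observations. The ratios are given as a description, because an exact two-sided permutation test of 3 libraries against 3 cannot give a p below 0.1. The order of the EpiLC replicates differed between the factors: Klf2 was highest in replicate 3, whereas Klf4 and Klf5 were highest in replicate 2 and Klf5 was lowest in replicate 3.

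**Figure D2:**
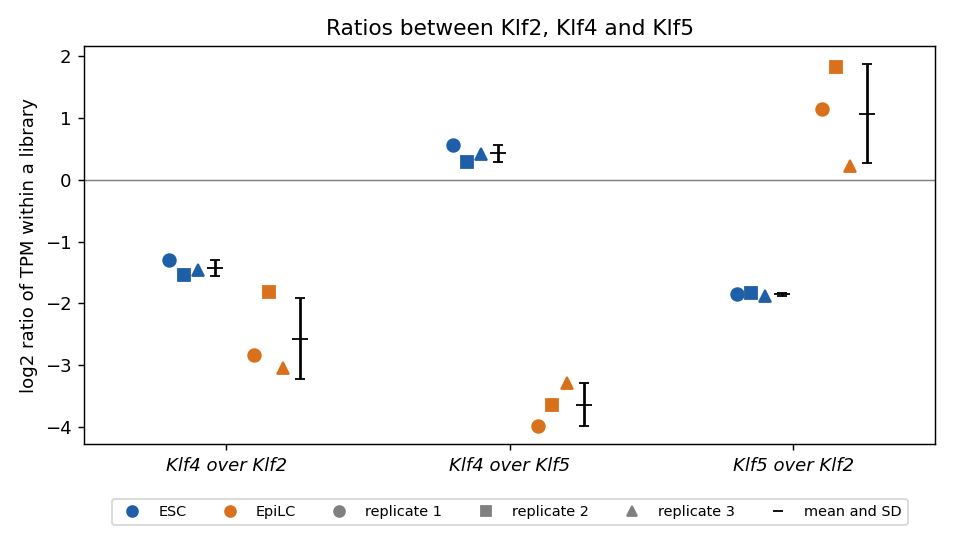
Log2 ratios of TPM between Klf2, Klf4 and Klf5 within each ESC (blue) and EpiLC (orange) library, with black bars for mean and SD (n = 3). The Klf5 to Klf2 ratio sits between -1.88 and -1.84 in ESCs and between 0.23 and 1.83 in EpiLCs.

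Klf6 and Klf7, the other activators of the set, went in opposite directions. Klf6 (chromosome 13, 5861489 to 5870393), a widely expressed factor that is induced early by growth stimuli, was at 195, 154 and 137 TPM in ESCs and at 101, 106 and 79.6 TPM in EpiLCs. Its groups did not overlap, yet the fall was the smallest of the 7, with a log2 fold change of -0.81 (standard error 0.15, edgeR adjusted p = 0.00507). With 95.7 ± 14.2 TPM (SD, n = 3), Klf6 was the most abundant of the 10 transcripts in EpiLCs.

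Klf7 (chromosome 1, 64029448 to 64122345), best known from neurons, was the least abundant of the 10 in ESCs, at 9.12, 9.19 and 8.74 TPM. It was at 19.9, 23.7 and 20.5 TPM in EpiLCs. Every EpiLC library was above every ESC library, and the ESC libraries differed by only 1.05-fold. The log2 fold change was 1.19 (standard error 0.13, edgeR adjusted p = 0.000652), a 2.28-fold rise resting on 94 to 152 counts in ESCs and 381 to 482 in EpiLCs.

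Klf3 (chromosome 5, 64803521 to 64832901), the CtBP-recruiting repressor of the set, was at 56.4, 54.6 and 63.7 TPM in ESCs and at 31.1, 31.4 and 24.8 TPM in EpiLCs. Its log2 fold change was -1.05 (standard error 0.12, edgeR adjusted p = 0.000666), with no overlap between the groups.

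Of the 4 SIN3-recruiting factors, Klf9 and Klf10 fell. Klf9 (chromosome 19, 23141226 to 23168129), known as a target of thyroid and glucocorticoid hormones, was at 79.6, 83.4 and 105 TPM in ESCs and at 38.6, 41.7 and 32.9 TPM in EpiLCs, a log2 fold change of -1.30 (standard error 0.14, edgeR adjusted p = 0.000555). Klf10 (chromosome 15, 38291464 to 38300711), an early target of TGF-β, was at 75.3, 46.6 and 85.5 TPM in ESCs and at 25.9, 32.4 and 31.5 TPM in EpiLCs. It varied most between ESC libraries, by 1.84-fold with replicate 2 lowest, but its EpiLC libraries all remained below its lowest ESC library. Its log2 fold change was -1.26 (standard error 0.22, edgeR adjusted p = 0.00436).

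Klf13 and Klf16 stayed on the other side of the threshold. Klf13 (chromosome 7, 63886351 to 63938915), a factor studied in T cells and heart, was at 21.3, 21.2 and 24.5 TPM in ESCs and at 28.9, 27.9 and 25.4 TPM in EpiLCs. The EpiLC values lay just above the ESC values, and the log2 fold change of 0.24 (standard error 0.09, edgeR adjusted p = 0.0628) did not pass the test. It passed in the fit without ESC replicate 3 (0.33, edgeR adjusted p = 0.0136) and in both limma fits on TPM, which are given with the other alternatives. Klf16 (chromosome 10, 80567121 to 80577296) was at 44.3, 53.5 and 42.9 TPM in ESCs and at 44.2, 45.2 and 41.2 TPM in EpiLCs. Its groups overlapped, with a log2 fold change of -0.16 (standard error 0.10, edgeR adjusted p = 0.216).

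**Figure D3:**
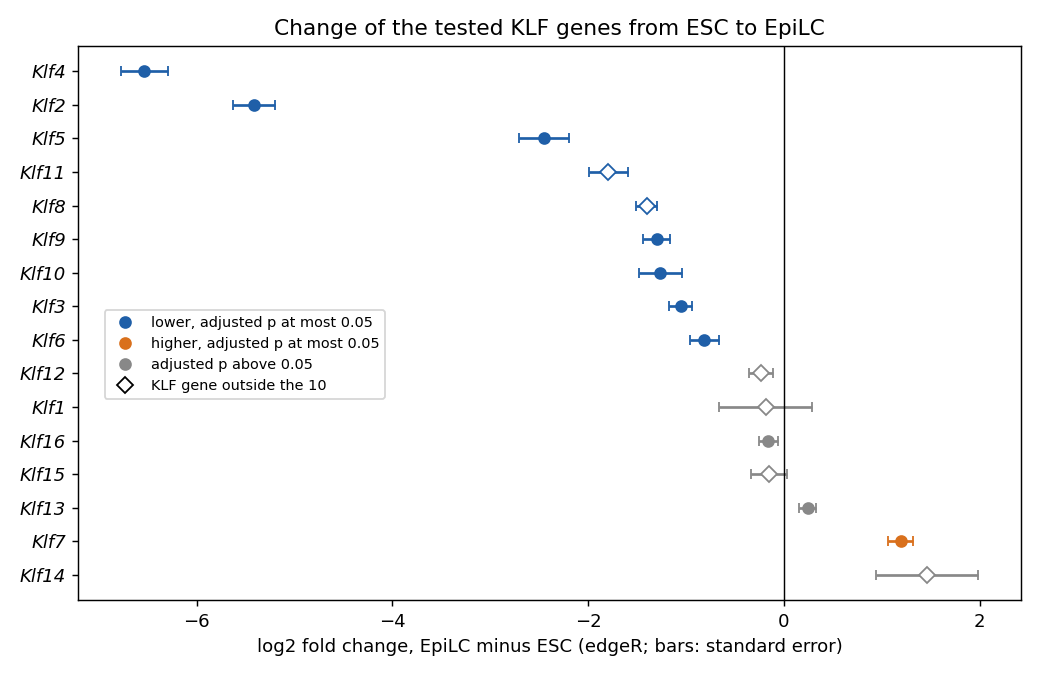
Log2 fold change (EpiLC minus ESC, edgeR) of the 16 tested KLF genes with standard errors as bars. Filled circles are the 10 genes of the set, open diamonds the others, blue and orange mark lower and higher genes at an adjusted p of at most 0.05, and grey marks genes that did not pass. Klf4 (-6.53) and Klf2 (-5.41) lie apart from the remaining genes, the next being Klf5 (-2.45).

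The family was thereby reordered. In ESCs the order by mean level was Klf2, Klf4, Klf6, Klf5, Klf9, Klf10, Klf3, Klf16, Klf13 and Klf7. Neighbours whose ranges overlapped in ESCs were Klf4 with Klf6, Klf6 with Klf5, Klf9 with Klf10, and Klf10 with Klf3. In EpiLCs the order was Klf6, Klf16, Klf9, Klf5, Klf10, Klf3, Klf13, Klf7, Klf2 and Klf4. The ranges of all neighbours from Klf16 to Klf13 overlapped in EpiLCs. Within that stretch, Klf16 was above Klf9 and Klf9 above Klf5 in 3 of 3 libraries, whereas from Klf5 to Klf13 each gene was above the next in 2 of 3. Klf6 at the top and Klf7, Klf2 and Klf4 at the bottom stood clear of their neighbours.

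The summed level of the 10 transcripts was 1329, 1284 and 1585 TPM in the ESC replicates and 336, 363 and 294 TPM in the EpiLC replicates. The mean of the sum was 4.23 times higher in ESCs. Klf2, Klf4 and Klf5 together supplied 67.1% ± 3.35 of it in ESCs and 13.9% ± 0.95 in EpiLCs (SD, n = 3 each). With CPM, which does not scale for transcript length, these shares were 54.4% and 7.57%. Their summed level was 20.3 times higher in ESCs (942 ± 152 against 46.3 ± 7.93 TPM, SD, n = 3 each), while that of the other 7 genes was 1.61 times higher (457 ± 31.0 against 285 ± 26.8 TPM). Klf2 alone supplied 40.8% ± 2.64 in ESCs and 4.30% ± 1.31 in EpiLCs. The share of Klf5 was 11.3% ± 0.68 in ESCs and 8.92% ± 2.16 in EpiLCs. Klf6 supplied the most in EpiLCs, 28.8% ± 1.56, followed by Klf16 with 13.2% ± 0.78, whose own level did not pass the test for a change.

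**Figure D4:**
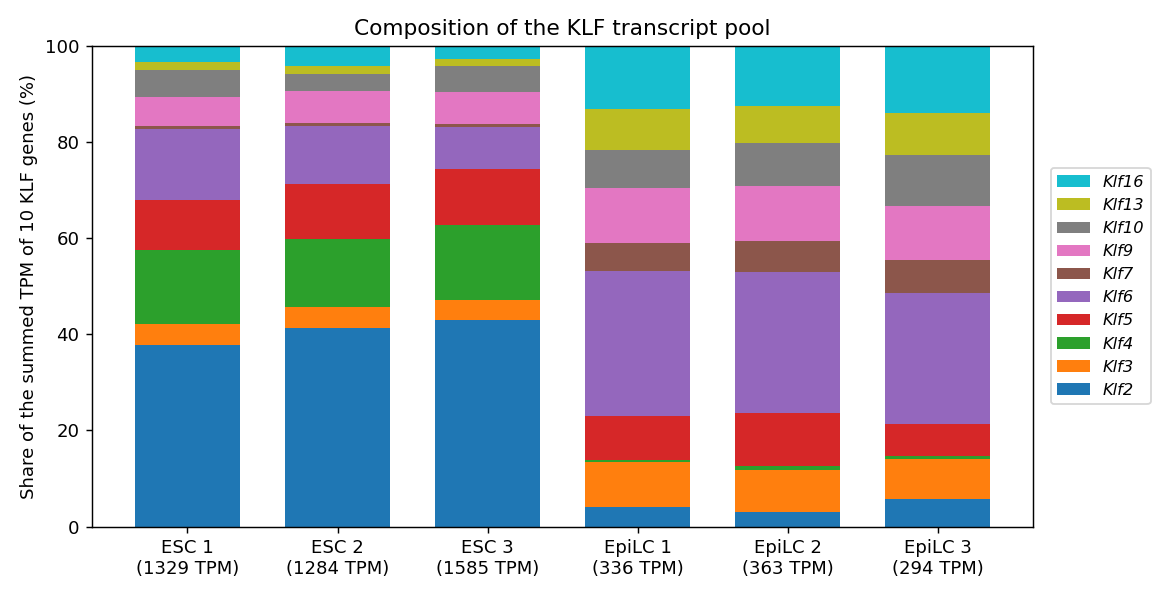
Share of each of the 10 genes in their summed TPM, as stacked bars that add to 100% for each library, with the sum in TPM under each bar. Klf2 (blue, bottom) takes 37.9% to 43.0% of the bars in ESCs and 3.09% to 5.68% in EpiLCs, where Klf6 (purple) takes 27.1% to 30.1%.

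Of the 7 KLF genes outside the set, 6 were tested, 2 were lower and none was higher in EpiLCs, beside 22.8% lower and 22.6% higher among all tested genes (3 of the 6 had an unadjusted p under 0.05 with edgeR, and Klf14 was called higher by limma on TPM and in the fit without ESC replicate 1). Klf8, a CtBP-binding repressor encoded on the X chromosome, was at 14.7, 15.2 and 15.2 TPM in ESCs and at 6.31, 6.37 and 5.02 TPM in EpiLCs, a log2 fold change of -1.40 (standard error 0.10, edgeR adjusted p = 0.000179). Klf11, a relative of Klf10, was at 26.6, 19.3 and 32.8 TPM in ESCs and at 7.23, 8.05 and 8.30 TPM in EpiLCs, a log2 fold change of -1.79 (standard error 0.20, edgeR adjusted p = 0.000657). Klf12 (-0.24) and Klf15 (-0.15) overlapped between groups at 6.53 to 9.21 and 8.32 to 12.5 TPM. The erythroid factor Klf1, Klf14 and the germ-cell and early-embryo factor Klf17 did not exceed 1.52 TPM in any library. Klf17 was not tested because it did not pass the filter on counts per library.

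By cofactor class, with Klf15 and Klf17 in no class, 4 of 6 activators were lower and 1 was higher, 2 of 3 CtBP-binding factors were lower, and 3 of 6 SIN3-binding factors were lower, beside 22.8% lower and 22.6% higher among all tested genes. Classes of this size were not tested against that share. Of 7 corepressor genes, 5 were higher and 0 were lower in EpiLCs (edgeR; 6 had an unadjusted p under 0.05, and DESeq2 and the fit without ESC replicate 2 called 1 lower). The corepressor genes Ctbp2 (0.66), Ctbp1 (0.57) and the deacetylase Hdac2 (0.31) had the largest log2 rises, and Sin3a and Sin3b did not pass. Without ESC replicate 1, or without any one EpiLC replicate, 3 corepressor genes were higher. Of 5 coactivator genes, 2 were lower, Ncoa3 (-1.13) and the acetyltransferase Kat2b (-0.93), while the acetyltransferases Ep300 and Crebbp did not pass. Without ESC replicate 3, 1 coactivator gene was higher.

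Genes of pathways known to act upstream of the naive KLFs were counted, though not each of these genes need act upstream itself. The counts are to be read beside the 22.8% lower and 22.6% higher among all tested genes. Of 6 genes of the LIF and STAT3 route, which activates Klf4, 5 were lower in EpiLCs, among them the feedback inhibitor Socs3 (-4.13), the kinase gene Pim1 (-2.92) and Stat3 itself (-2.29), and Jak1 did not pass. Of 7 genes of the ERK5 and MEF2 route, which activates Klf2 in other cells, 1 was higher (Mapk7, which encodes ERK5, 0.20) and 0 were lower (edgeR; 2 had an unadjusted p under 0.05, and DESeq2 also called 0 lower, whereas 1 was lower without ESC replicate 3). The call of Mapk7 was lost in each fit that left out 1 library. Of 13 partners of the KLFs in the naive network, 12 were lower, with a median log2 fold change of -4.40, and Pou5f1 (0.07) did not pass. These partners include every ESC marker of the identity check. With 1 library left out, 9 to 12 of the partners were lower. The largest falls among the partners were those of Prdm14 (-6.71), Tbx3 (-6.59) and Esrrb (-6.44), beside -6.53 for Klf4. All 10 EpiLC marker genes of a longer list, which holds every EpiLC marker of the identity check, were higher. Pou3f1 (4.07), Sall2 (3.61) and Sox3 (2.93) came first, and 9 to 10 were higher with 1 library left out.

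Genes closest to Klf2, Klf4 and Klf5 were found by the Euclidean distance of log2 CPM over the 6 libraries, which reads level and change together. Closest to Klf2 were Tfcp2l1 (distance 0.98), Tdgf1 (1.22), the gene of the NODAL coreceptor Cripto, and Nanog (1.44). Closest to Klf4 were Fos (1.56), Esrrb (1.74) and Ntn1 (2.90), and closest to Klf5 were Stat3 (0.69), Hmces (0.74) and Lifr (0.86). The libraries fall into 2 groups, so these distances mostly describe the difference between the groups.

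ESC replicates differed in fibroblast marker genes, whose summed level was 364, 1689 and 133 TPM in ESC replicates 1, 2 and 3 and between 96.5 and 107 TPM in EpiLCs. Of 14 markers, 13 were tested, ESC replicate 2 had the highest and ESC replicate 3 the lowest ESC level of all 13, and 6 were lower in EpiLCs, with Col1a1 (-4.74), Col1a2 (-4.70) and Prrx1 (-3.83) changed most. The counts of this and the following marker lists stand beside 22.8% lower and 22.6% higher among all tested genes, against which they were not tested. The number of fibroblast markers that were lower was 3 without EpiLC replicate 1 or without EpiLC replicate 3, and 10 without ESC replicate 3. The most abundant by ESC mean was Col1a1, by EpiLC mean Acta2, and Lum was at 0 in ESC replicate 3 and EpiLC replicates 1 and 2. Among the KLF genes, 7 of the 10 were highest in ESC replicate 3, whereas Klf7 and Klf16 were highest in replicate 2 and lowest in replicate 3, the order of the fibroblast markers, and Klf6 was also lowest in replicate 3. Before differentiation the ESCs were freed of feeders by letting these attach to plastic, and whether the 0 h RNA was taken after that step is not given in the sources used here. The part of feeder cells in the KLF values was not tested. In the fit without ESC replicate 2, the same 7 genes were lower and Klf7 was higher, with log2 fold changes of -5.47 for Klf2, -6.63 for Klf4, -2.50 for Klf5 and 1.20 for Klf7. Immediate early genes, which respond to serum as Klf4, Klf6 and Klf10 can, had summed levels of 2103, 1465 and 1496 TPM in the ESC replicates and between 223 and 340 TPM in EpiLCs, and 12 of 14 were lower. Their largest falls were those of Fosb (-8.13), Fos (-7.12) and Egr1 (-3.32), and the part of serum in the KLF changes was not tested. Markers of other embryonic cells were counted in the same way. Of 8 primitive endoderm markers 5 were lower (summed level 61.3 to 131 TPM in ESCs, 37.4 to 49.5 TPM in EpiLCs), led by Gata6 (-4.63), Pdgfra (-3.91) and Gata4 (-3.20), and Col4a1, which did not pass, was the most abundant by ESC mean. Of 6 tested trophectoderm markers 4 were lower, Krt7 was higher and Cdx2 did not pass (86.0 to 183 and 20.3 to 28.5 TPM). The falls were led by Tfap2c (-3.96), Gata3 (-3.57) and Eomes (-3.32). Eomes was the most abundant by ESC mean, and Elf5 was at 0.07 TPM or below. The study also used Eomes as an early primitive streak marker, so its level is not particular to trophectoderm. All 4 tested 2-cell-like markers, whose copies share reads, were lower (8.26 to 26.2 and 1.09 to 1.36 TPM), led by Tcstv3 (-6.49), Zscan4d (-4.23) and Zscan4f (-3.47), with Zscan4f the most abundant by ESC mean and Zfp352 at 0.30 TPM or below. The size for Tcstv3 depends on the prior count of the fit, because it had 1.13 expected counts or fewer in each EpiLC library. The part of such cells in the KLF changes was not tested.

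Among replicates, Klf2, Klf4 and Klf5 had SDs of log2 CPM of 0.25, 0.24 and 0.23 in ESCs (n = 3). In EpiLCs their SDs were 0.31, 0.37 and 0.50, beside medians over all tested genes of 0.197 in ESCs and 0.107 in EpiLCs. Klf16 (0.05) and Klf13 (0.09) varied least in EpiLCs, and Klf7 (0.02) varied least in ESCs.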

How the data were processed

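RNA-seq libraries of 3 ESC and 3 EpiLC replicates were analysed. The authors trimmed single-end, strand-specific reads of 76 nt with cutadapt 1.16, mapped them with STAR 2.5.2a and counted genes with RSEM 1.3.0 against mm10 RefSeq genes. They deposited expected counts, in which reads shared by several genes are divided, and TPM. Submitters' notes also list DESeq2 1.16.1. For EpiLCs the labels give 48 h, the culture methods a longer time.

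Expected counts were rounded, filtered with filterByExpr (14468 of 24736 genes kept), normalized by TMM and tested with edgeR 4.0.16 in R 4.3.3. The standard error is the log2 fold change divided by the root of F. The study used DESeq2. A level of 3 counts corresponds to 0.0855 to 0.177 CPM, depending on the library (counting error only). On simulated counts with known changes in 192 of 14301 tested genes, 87.5% of 4-fold and 61.5% of 2-fold changes were called, with 5 false calls. The real comparison called 6571 genes, so these rates need not carry over to it.

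KLF genes and lists were chosen with earlier results of these data known. Named genes are the 10 KLF genes, other tested KLF genes, the called genes with the 3 largest changes of each list, the most abundant gene of marker lists of other cells, and the 3 nearest genes to Klf2, Klf4 and Klf5. Further genes named to account for a list were chosen after their values were seen. Alternatives were DESeq2 1.42.0, upper-quartile and RLE normalization, no filter (a total of at least 1 count), a filter of 10 counts in every library, the replicate block, limma 3.58.1 on log2(TPM + 1) and log2(TPM + 0.1), and leaving out each library. Protein sequences were not used here.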

Additional observations from a re-analysis of the deposited data

How the results depend on the processing

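The 7 KLF genes that fell and Klf7, which rose, kept their direction and call in all 14 alternatives run for each gene, with log2 fold changes from -5.57 to -5.25 for Klf2, -6.78 to -5.99 for Klf4, -2.69 to -2.22 for Klf5 and 1.13 to 1.24 for Klf7. Klf16 did not pass in any of them. Klf13 passed with limma on log2(TPM + 1) (0.28, adjusted p = 0.043) and log2(TPM + 0.1) (0.29, adjusted p = 0.0409), so that 2 KLF genes were higher in either fit. Leaving out 1 library gave Klf13 a log2 fold change between 0.19 and 0.33 and 1 to 2 higher KLF genes. The cause was not tested. Klf4 rests on 88 to 152 counts in EpiLCs and Klf7 on 94 to 152 in ESCs, the lowest counts of the set. The share of Klf2, Klf4 and Klf5 was 54.4% in ESCs and 7.57% in EpiLCs with CPM, and 12.7% in EpiLCs over all KLF genes.

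The replicate numbers are shared by both groups in the labels, but same-numbered libraries deviated together only in part (r across genes of 0.0067, 0.19 and 0.17), so the numbers were not taken as pairs, although each library correlated best with its own number except EpiLC replicate 1 and ESC replicate 1. With the replicate block 6085 genes were called, against 6571, no call of the 10 KLF genes changed, the calls of Btrc, Mapk7 and Sp7 were lost, and 0 genes of the ERK5 and MEF2 route were higher.

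Counts of other lists that moved by more than 1.5 times, or to or from 0, were as follows, with the cause not tested except for the filter, which removes genes of low count. DESeq2 called 1 corepressor gene lower. With at least 10 counts in every library, 1 SP gene, 2 trophectoderm markers and 1 2-cell-like marker were lower. Both limma fits called 1 KLF gene outside the set and 1 coactivator gene higher, and 0 turnover genes lower. Leaving out 1 library gave 2144 to 3572 higher and 2100 to 3609 lower genes in all. Higher genes then numbered 0 to 1 among other KLF genes, 3 to 5 among corepressors, 0 to 1 among coactivators, 0 in the ERK5 and MEF2 route, 1 to 3 among turnover genes and 0 to 1 among fibroblast markers. Lower genes numbered 1 to 5 among SP factors, 0 to 1 among corepressors, 0 to 1 in the ERK5 and MEF2 route, 0 to 1 among turnover genes and 3 to 10 among fibroblast markers. Smaller moves were 9 to 12 naive partners, 11 to 13 immediate early genes, 5 to 7 primitive endoderm markers, 3 to 4 trophectoderm markers and 5 to 6 LIF and STAT3 genes lower, and 9 to 10 EpiLC markers higher. Klf1 (-0.65 to 0.078) and Klf15 (-0.28 to 0.076), which did not pass, changed sign without EpiLC replicate 2 and without ESC replicate 3, respectively.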

Other observations

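The SP factors share the zinc-finger type and the GC-rich binding sites of the KLFs. Of 9 SP genes, 8 were tested, 3 were lower and 1 was higher in EpiLCs, beside 22.8% lower and 22.6% higher among all tested genes. Sp5, a direct target of WNT signalling, reached 56.6, 27.4 and 23.6 TPM across the ESC libraries, against 0.09, 0 and 3.39 TPM across the EpiLC libraries, a log2 fold change of -5.03 (standard error 1.21, edgeR adjusted p = 0.0141). Its EpiLC counts were 3, 0 and 101, so the size of the fall rests on EpiLC replicate 3, and no fold is given without that library, since the other two are at or under a floor of 3 counts. Sp6 rose from 3.29 to 5.54 TPM in ESCs to 12.4 to 14.6 TPM in EpiLCs (1.56, edgeR adjusted p = 0.00109). Sp2 was lower by a smaller amount (-0.41, edgeR adjusted p = 0.032), and Sp7, at 0.51 TPM or below, was called lower (-1.31, edgeR adjusted p = 0.0437), a call that was lost with DESeq2, limma and other alternatives. The widely expressed Sp1 and Sp3, between 75.3 and 107 TPM in all libraries, did not pass. The number of SP genes that were lower was 1 without EpiLC replicate 1 and 5 without ESC replicate 2.

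Of 8 genes with roles in the turnover of KLF proteins, 3 were higher (Stub1, 0.30, Btrc, 0.27, and Usp10, 0.26) and 1 was lower (Smurf1, -0.31), beside 22.6% higher and 22.8% lower among all tested genes. The list was not tested against that share. The call of Btrc was lost in each of the 6 fits that left out 1 library and with limma on log2(TPM + 1), and that of Stub1 without EpiLC replicate 1. Without ESC replicate 1, 1 of the turnover genes was higher, the calls of Btrc and Usp10 being lost. Without EpiLC replicate 1, 1 was higher too, and none was lower when any one EpiLC replicate was left out. Protein levels were not measured in these libraries.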
